A study of Mus musculus with 6 samples.

Results

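Connexins and pannexin 1, the proteins of gap junctions and of related membrane channels, were followed in lymphatic endothelial cells (LEC) of the mouse, grown in culture from a transplanted fibrosarcoma or from the skin of the tail. The 6 genes were Gja1, Gja4, Gja5, Gjc1, Gjb2 and Panx1, chosen by name out of 18193 genes with a probe set of their own. Affymetrix arrays carried 12 probe sets annotated to 1 of these symbols and no other gene, out of 34945 probe sets with a single gene. The value of a gene was that of its brightest probe set by mean over the 6 arrays. A filter on low values, the 40th percentile of probe set means, was passed by 4 of the 6 genes and by 12954 genes in all. Gja5 and Gjb2 lay under it.

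Connexins are membrane proteins that assemble into a hemichannel, and hemichannels of neighbouring cells dock to form a gap junction through which ions and small molecules pass. Pannexins have a similar fold but form channels of a single membrane, best known for releasing ATP. In lymphatic vessels, connexins are known for their part in the development and upkeep of the valves, where different connexins occupy different sides of the leaflet.

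Tumour LEC came from C57BL/6 mice that had been injected with T241/VEGF-C/GFP cells. T241 is a mouse fibrosarcoma line. Here it carried green fluorescent protein and VEGF-C, which drives the growth of lymphatic vessels. Normal LEC were dermal cells from tail skin of female C57BL/6 mice aged 8 weeks. The age and sex of the mice with tumours are not in the labels. Both kinds of cell were grown on gelatin in an endothelial medium, so all values are those of cultured cells, and were purified on magnetic beads through LYVE-1, which binds hyaluronan on lymphatic endothelium. Lyve1 itself was thus part of the selection. Most of the contaminating tumour cells had first been lifted off with EDTA. There were 3 arrays per group. Tumour arrays are titled as tumour cells but their source is given as LEC out of the tumours, and the source was followed. Nothing says whether replicates were separate animals or cultures, so each p-value reflects array-to-array spread, which may be technical, and the small number of arrays limits the precision.

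Most markers of the labelled cell type were present. Of 6 lymphatic markers measured, 5 were above background on all arrays, among them Lyve1 (13.65 to 14.91 on the log2 scale), Prox1 (7.73 to 8.92) and Flt4 (11.93 to 12.80), while Mmrn1 was at background throughout. Pdpn, or podoplanin, averaged 11.57 ± 0.022 in normal and 11.66 ± 0.43 in tumour LEC (SD, n = 3). Of 9 markers of endothelium in general, 8 were above background on all arrays and Vwf on none. Pecam1 read 5.59 to 8.86, Cdh5 9.62 to 11.65 and Emcn 8.95 to 12.70. These were among the 5 of the 8 that were lowest on normal array 1, while Kdr, Tie1 and Cldn5 were lowest elsewhere. By group mean 7 of the 8 were higher in tumour LEC and Kdr lower, with a median difference of 0.91. Esam (2.08) and Cdh5 (1.01) did not overlap between groups (limma adjusted p = 0.174 and 0.354). Sums of the 9 were 12.38 to 13.38 on the normal and 13.66 to 14.02 on the tumour arrays. The part of this shift in the differences reported below was not tested. Normal array 1 stood apart in fibroblast markers. Its 10 fibroblast markers summed to 15.16 (log2 of the summed levels), against 12.35 on each of the other normal arrays, and tumour arrays had 7.14 to 7.69. On normal array 1 Col1a2, a collagen gene, reached 14.29. Tumour array 1 had the highest sum of leukocyte markers, 12.90 against 10.87 to 12.24 elsewhere. A value was called at background when it did not exceed the highest of 27 control probe sets for absent bacterial RNA on its array, which was 3.40 to 3.71.

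Gjc1 was the only one of the 6 genes above background whose tumour and normal arrays did not overlap, and it was lower in tumour LEC on both of its probe sets. Such separation was common. Of all tested genes above background on some array, 13.5% were separated towards lower values and 27.2% in either direction. Gja1, by far the best studied connexin, was strongly detected, with means of 13.23 in normal and 13.12 in tumour LEC and overlapping groups. Panx1 was detected on all arrays, Gja4 on 1 array of each group, and Gja5 and Gjb2 on none. None of the 4 genes tested passed an adjusted p of 0.05 with 1 value per gene (limma, Benjamini-Hochberg over 12954 genes), a threshold passed by 0.216% of all genes, 0.17% towards lower and 0.0463% towards higher values. At an unadjusted p of 0.05 the count was 1 of 4, Gjc1, against 15.5% of all genes and 8.83% lower in tumour LEC. None of the 4 was at least 2-fold lower on its brightest probe set, as 6.76% of all genes were.

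**Figure D1:**
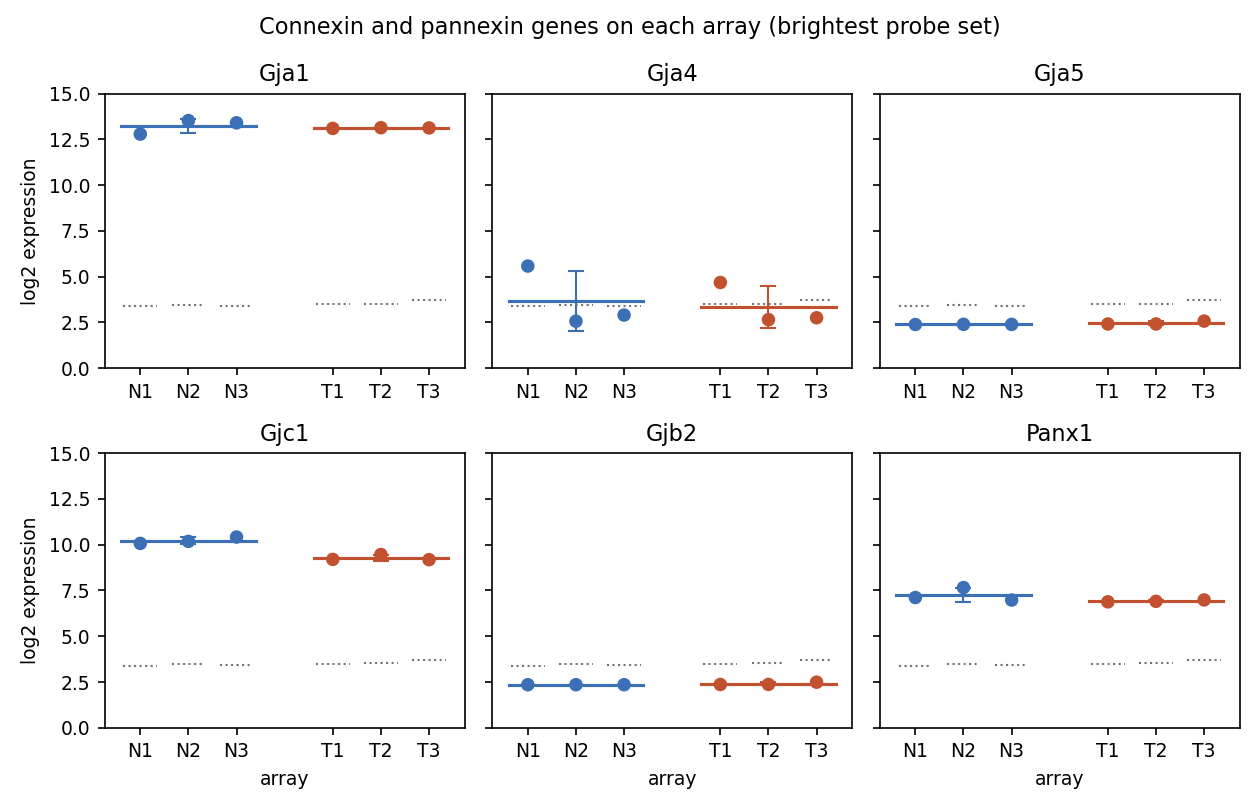
Log2 expression (vertical axis) of each gene's brightest probe set on the 3 normal (N1 to N3, blue) and 3 tumour arrays (T1 to T3, red). Lines are group means, bars the SD, and dotted marks the background limit of each array; Gjc1 is separated between the groups, Gja5 and Gjb2 stay under the limit, and Gja4 exceeds it on N1 and T1.

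Gja1 encodes Cx43 (connexins are named by molecular mass), the most widely expressed connexin, which is found in endothelium, fibroblasts, heart and many other cells. It read 12.78, 13.52 and 13.40 on normal arrays 1, 2 and 3 and 13.09, 13.13 and 13.12 on the tumour arrays. The tumour values lay inside the range of the normal ones, and normal array 1 was the lowest of all 6. The difference, tumour minus normal, was -0.12 log2 units (SE 0.21, 95% interval -0.65 to 0.41, limma adjusted p = 0.771). The lower end of the interval is 1.57-fold lower in tumour LEC. The direction turned when normal array 2 was left out, to 0.02, and without normal array 1 the difference was -0.34. On this probe set the spread among the normal arrays, an SD of 0.40, was far wider than the 0.020 among the tumour arrays (n = 3 each). The contrast was smaller on the next 3 probe sets by brightness, with SDs of 0.34 to 0.40 in normal and 0.11 to 0.16 in tumour LEC.

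The other 5 probe sets of Gja1 gave differences of -0.68 to -0.0049. The groups overlapped on all 6. The brightest probe set of Gja1 and some of the others are of a kind that can share probes with other transcripts. Without probe sets of this kind the difference was -0.05 (limma adjusted p = 0.915). The probe sets that averaged 11.83, 11.77 and 11.56 over the arrays differed by -0.02, -0.05 and -0.11. A dimmer one, averaging 5.36, read 6.11 and 6.22 on normal arrays 2 and 3, 4.78 on normal array 1 and 4.88 to 5.11 on the tumour arrays. Its 95% interval, -1.69 to 0.33, covered 0. The last, averaging 4.03, moved by only 0.11 over all arrays and lay close to background, so it says little about Gja1.

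Gjc1 encodes Cx45, known from the cardiac conduction system, smooth muscle and the early vasculature. Its brightest probe set read 10.07, 10.18 and 10.41 on the normal arrays and 9.20, 9.46 and 9.18 on the tumour arrays. Every tumour value was below every normal value, a separation towards lower values in tumour LEC that 11.6% of the genes tested showed (32.4% in either direction). The means were 10.22 ± 0.18 in normal and 9.28 ± 0.16 in tumour LEC (SD, n = 3). The difference was -0.94 (SE 0.15, 95% interval -1.31 to -0.58), which is 1.92-fold lower with an interval of 1.49-fold to 2.47-fold. By p it ranked 129 among the 12954 genes, and the adjusted p = 0.0853 (limma) missed the threshold. With arrays weighted by quality it passed, at -0.83 with adjusted p = 0.0410, as 2.01% of genes did towards lower values. In bulk RNA such as this, fewer cells that carry a transcript and less of it per cell cannot be told apart.

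The second probe set of Gjc1 separated the groups further. It read 7.58, 7.94 and 7.56 on the normal arrays and 5.49, 5.07 and 5.49 on the tumour arrays, all above background. The means were 7.69 ± 0.22 and 5.35 ± 0.24 (SD, n = 3), and the difference -2.34 (SE 0.18, 95% interval -2.79 to -1.90) is 5.07-fold. Tested singly among 27018 probe sets, an alternative chosen after seeing the data, it passed with adjusted p = 0.0298 (limma), as 0.174% of probe sets did in this direction, whereas the brightest probe set had adjusted p = 0.0867 in that fit. The call was lost without normal array 2 or 3 (adjusted p = 0.0751 and 0.111), without tumour array 1, 2 or 3 (0.0823, 0.0794 and 0.178), and with no filter on low values (0.0714), while the difference stayed between -2.41 and -2.20 in each of these.

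**Figure D2:**
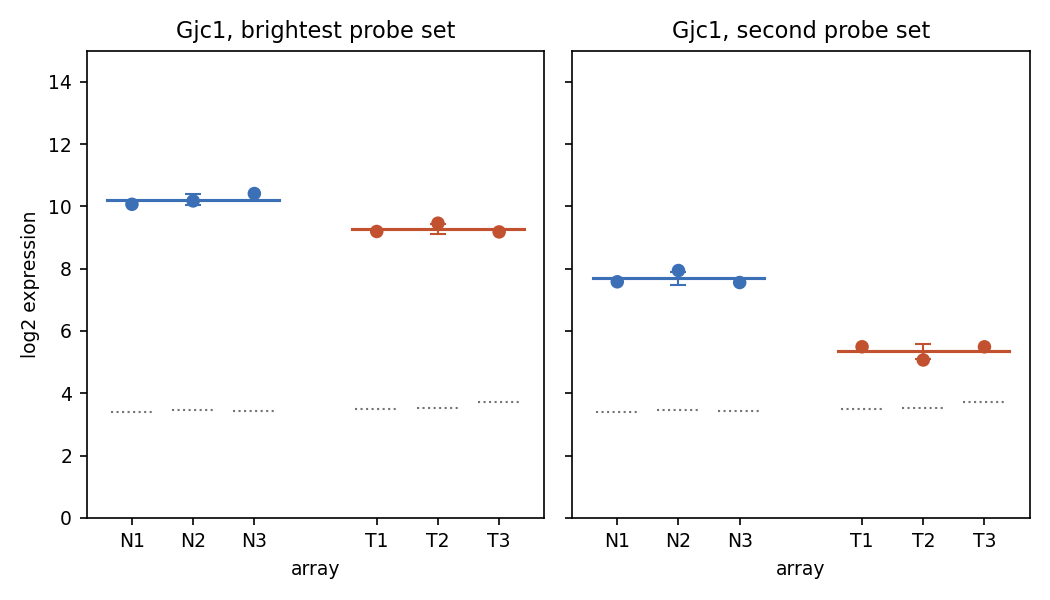
Log2 expression (vertical axis) of the 2 probe sets of Gjc1 on normal (blue) and tumour (red) arrays, with group means, SD bars and dotted background limits. The tumour arrays lie below the normal ones in both, with differences of -0.94 log2 units in the left panel and -2.34 in the right one.

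Both probe sets moved the same way but their sizes differed, with intervals that did not overlap. The mean of the 2, used in place of the brightest, gave -1.64 (SE 0.10) and passed with adjusted p = 0.0206 (limma), as 0.154% of genes did towards lower values. That call was lost when any single array other than normal array 1 was left out (adjusted p = 0.0557 to 0.108). The second probe set is of a kind that can share probes with other transcripts. Which of the sizes reflects Gjc1 was not tested.

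The fibroblast markers moved in the same direction as Gjc1 between the groups. Of these, 9 of 10 were lower on every tumour array than on any normal array, against 11.6% of all genes tested. Their sums were 12.35 to 15.16 in normal and 7.14 to 7.69 in tumour LEC. Col1a2 fell, from 14.29, 11.69 and 11.70 on the normal arrays to 3.61 on tumour array 1 and background on the other tumour arrays (limma adjusted p = 0.0276). Pdgfra read 11.75, 9.48 and 9.13 on the normal and 5.74, 4.87 and 4.66 on the tumour arrays (adjusted p = 0.0828). Their part in the difference of Gjc1 was not tested. On normal array 1, where the fibroblast markers were highest, the brightest probe set of Gjc1 had its lowest normal value, 10.07, and the second probe set read 7.58, between the other normal arrays. Without that array the differences were -1.02 and, for the second probe set, -2.40 (limma adjusted p = 0.140 and 0.0414). Fibroblast sums still differed between the groups then, 12.35 on each remaining normal array against 7.14 to 7.69 on the tumour arrays. Leaving out that array therefore cannot decide their part in the difference of Gjc1. Markers of smooth muscle and pericytes summed to 12.43 to 14.14 in normal and 11.45 to 14.11 in tumour LEC, overlapping, although Cspg4, a proteoglycan of pericytes, was at background on all 3 tumour arrays. Acta2 read 12.22 to 13.96 in normal and 10.66 to 13.28 in tumour LEC, and Tagln 9.25 to 10.85 and 9.97 to 12.92. Of 8 such markers 4 were at background on all arrays, Myh11, Cnn1, Des and Rgs5.

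Gjc1 was set against Gja1 and Panx1 within each array to see whether it changed unlike them. Gjc1 minus Gja1 was -2.71, -3.34 and -2.98 on the normal arrays and -3.90, -3.67 and -3.94 on the tumour arrays, with no overlap. This difference of log2 values shifted by -0.82, with p = 0.1 in a two-sided exact permutation test, the smallest p that 3 arrays against 3 allow. Gjc1 minus Panx1 shifted by -0.61 with overlap (exact permutation p = 0.2). Adjusted over the 2 pairs both gave 0.2. A design of this size cannot pass 0.05, so the test settles neither pair.

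The genes whose values over the 6 arrays were most like those of Gjc1 were Heatr5a, Msh6 and Plec, which encodes the cytoskeletal linker plectin. Likeness was the root mean square distance between values centred on each gene's mean, 0.090, 0.098 and 0.12 log2 units over 6 arrays. They differed by -0.82, -0.89 and -1.03 between the groups, and their adjusted p of 0.0833, 0.0778 and 0.0853 (limma) missed the threshold too.

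Panx1 encodes pannexin 1, a channel that releases ATP and can be opened by caspases. It read 7.11, 7.66 and 6.98 on the normal arrays and 6.88, 6.91 and 6.98 on the tumour arrays. Normal array 2 was the highest of all, and normal array 3 and tumour array 3 both read 6.98, so the groups overlapped. The difference was -0.33 (SE 0.20, 95% interval -0.82 to 0.17, limma adjusted p = 0.470), and the lower end of the interval is 1.77-fold lower in tumour LEC. Without normal array 2 it was -0.12 and without normal array 3 -0.46.

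**Figure D3:**
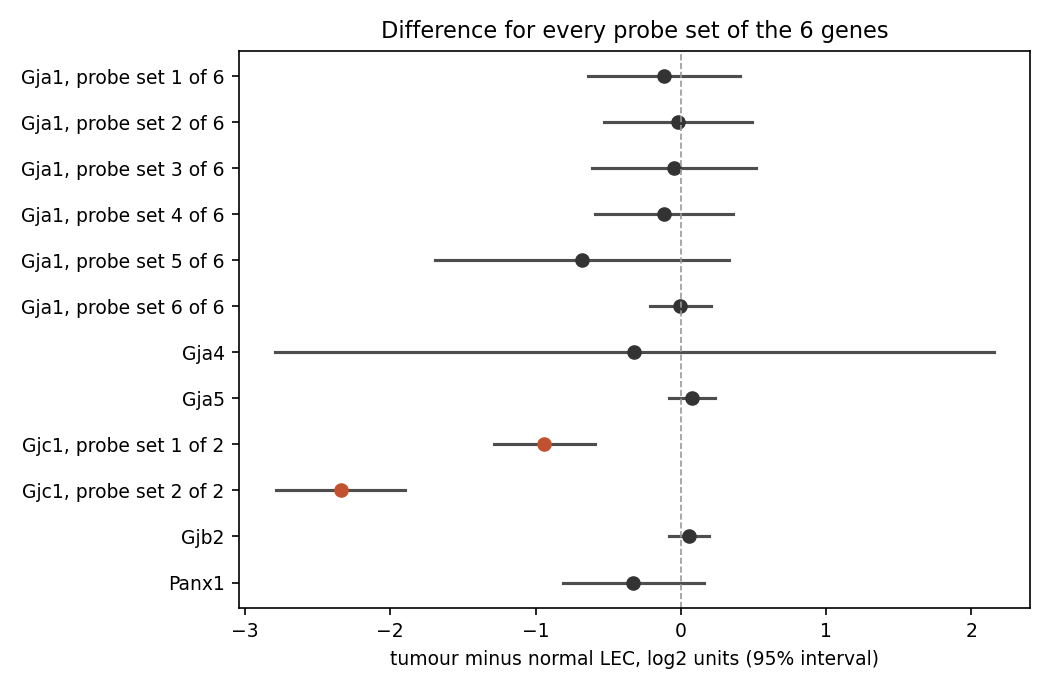
Difference between tumour and normal LEC in log2 units (horizontal axis) for each of the 12 probe sets, with 95% intervals from limma. Gja5 and Gjb2 come from the fit of genes with no filter, the others from the fit of 27018 single probe sets. Intervals therefore differ slightly from those of the gene fit in the text. Gjc1 (red) alone has intervals that leave out 0, and Gja4 has the widest, -2.79 to 2.15.

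Gja4 encodes Cx37, a connexin of arterial and lymphatic endothelium that is needed for lymphatic valves. It was above background on 2 arrays, with 5.58 on normal array 1 and 4.68 on tumour array 1. On the others it was at background, reading 2.57 and 2.90 on normal arrays 2 and 3 and 2.65 and 2.76 on tumour arrays 2 and 3. Arrays of the same group thus differed more than the groups did. The difference was -0.32 (SE 0.98, 95% interval -2.77 to 2.13, limma adjusted p = 0.869), an interval that covers changes of several fold either way. It was 0.63 without normal array 1, 0.04 without tumour array 2 and -0.98 without tumour array 1. Both arrays with signal carry the number 1, and without both the difference was -0.03 (SE 0.18). With replicate number as a block it was -0.32 (SE 0.24), but pairing by number was not established.

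The arrays with Gja4 signal also stood apart in markers of other cells. Fibroblast markers were highest on normal array 1 (sum 15.16, 0 of 10 at background) and leukocyte markers on tumour array 1 (sum 12.90, 1 of 10 at background). Tumour array 1 had fibroblast markers at 7.69, near the other tumour arrays, and normal array 1 had leukocyte markers at 11.13, inside the range of the other arrays. The sum of general endothelial markers was the highest of all on tumour array 1, 14.02, and the lowest on normal array 1, 12.38. Of the brightest leukocyte markers, Cd68 was highest on tumour array 1, at 10.88 against 4.82 to 9.57 elsewhere. Cd14 was not: it read 11.11 there and was higher on normal array 3 (11.33) and on tumour array 3, where Gja4 was at background. Markers of arterial endothelium summed to 11.25 on normal array 1, the lowest of all, and to 11.82 on tumour array 1, within the range of 11.25 to 12.12. Of the 10 arterial markers, 3 were at background on each of these arrays, against 4 or 5 on each other array. Hey1 was highest on the arrays with Gja4 signal, at 6.79 on normal array 1 and 7.17 on tumour array 1, against 4.36 to 6.34 elsewhere. Notch4 was lowest on normal array 1, at 3.58. Dll4 was at background on 5 arrays and Sox17 and Cxcr4 on all 6, while Efnb2 read 10.11 to 11.20 and Jag1 9.06 to 10.74. The part of other cells in the Gja4 signal was not tested.

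**Figure D4:**
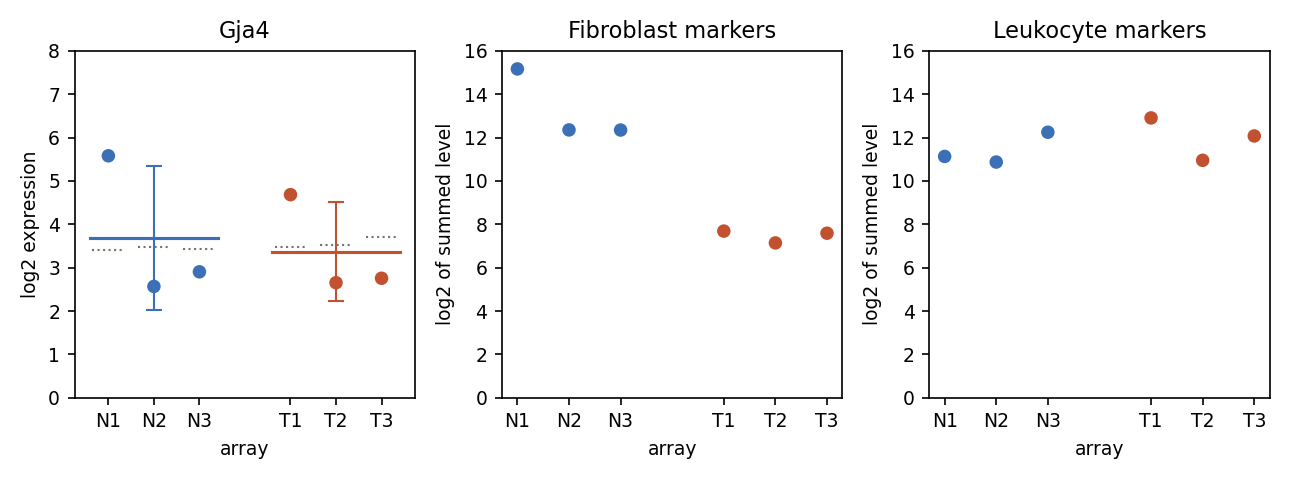
Left, log2 expression of Gja4 on normal (blue) and tumour (red) arrays with group means, SD bars and dotted background limits; middle and right, log2 of the summed level of 10 fibroblast and 10 leukocyte markers on the same arrays. Gja4 exceeds the limit on N1, where the fibroblast sum is 15.16, and on T1, where the leukocyte sum is 12.90.

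Gja5 encodes Cx40, which marks arterial endothelium. It was at background on all arrays, with 2.39, 2.40 and 2.39 on the normal arrays and 2.42, 2.42 and 2.57 on the tumour arrays. Gjb2 encodes Cx26, a connexin of epithelia including skin and inner ear. It too was at background throughout, with 2.35, 2.36 and 2.35 on the normal arrays and 2.37, 2.37 and 2.49 on the tumour arrays. Both were highest on tumour array 3, where the bacterial controls also had their highest median, 2.77 against 2.56 to 2.61 on the other arrays. For both genes every tumour value was above every normal value, but all were at background, where values have no usable order, so no fold is given. Of 11 keratinocyte markers, 7 were at background on all arrays, among them Krt14 and Krt1, though Perp, a desmosome-linked membrane protein, fell in tumour LEC, from 9.07 to 10.95 on the normal arrays to 4.21 to 5.06 (limma adjusted p = 0.0415). Krt10 read 7.09 to 7.17 on the normal and 6.76 to 6.95 on the tumour arrays.

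Among 17 other connexins and pannexins, 11 had a probe set of their own and the rest were not analysed here. Of these, 10 were at background on all 6 arrays, including Panx2, Panx3, Gjb6 and Gjc3. Gjb5, a connexin of stratified epithelium, was the exception. It read 3.46, 4.96 and 4.34 on the normal arrays, the first of these just above its limit, and was at background on all tumour arrays, at least 1.60-fold lower. Its adjusted p was 0.276 (limma), its means 4.25 and 2.86, and the groups overlapped, normal array 1 lying below tumour array 3. Of the 6 genes tested in this set 0 passed, and the only one past an unadjusted p of 0.05 was Gjb5. Gja3 at 0.25 and Gjb6 at 0.14, the smallest p among those higher in value, were at background on all arrays.

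Genes for proteins that bind, phosphorylate, carry or degrade connexins were detected throughout. All 21 measured of 24 listed were above background on all arrays, 10 differences were positive and 11 negative, and the median was -0.01 against 0.03 over all genes tested. None passed (limma), and 2 of 21, both lower, had an unadjusted p under 0.05, a share close to the 8.83% of all genes that were lower at this p. Ccn3, a secreted protein reported to bind Cx43, read 8.39, 7.73 and 9.27 on the normal and 6.87, 6.00 and 6.12 on the tumour arrays. The groups did not overlap, and the difference was -2.13 (SE 0.45, adjusted p = 0.134). Prkca, a protein kinase C that phosphorylates Cx43, differed by -1.06 (SE 0.31, adjusted p = 0.227), also without overlap. Ccn3 and Prkca were the only 2 of the 21 without overlap, both lower. Of all genes tested, 11.6% were separated towards lower values and 32.4% in either direction. Among genes above background on some array the share in either direction was 27.2%. Tjp1 or ZO-1, the scaffold that binds the tail of Cx43, differed by 0.54 (SE 0.23) and Cav2, a caveolin, by 0.49 (SE 0.24), both with overlap.

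Genes of extracellular ATP, the signal that pannexin 1 and hemichannels release, gave 13 tested of 26 listed. Of these 2 were at background on all arrays, and among the other 11 there were 5 positive and 6 negative differences with a median of -0.07. None passed (limma). At an unadjusted p of 0.05 there were 1 higher and 1 lower of 13, a share like the 15.5% of all genes. Nt5e, which encodes CD73 and makes adenosine from AMP, read 7.33, 6.02 and 5.74 on the normal arrays and was at background on all tumour arrays. It was at least 6.93-fold lower there, with adjusted p = 0.0580 (limma). It was highest on normal array 1, where fibroblast markers were highest, and the part of other cells was not tested. Slc29a1, a nucleoside transporter, read 6.56 to 7.05 on the normal arrays and 5.76, 6.03 and 3.46 on the tumour arrays (adjusted p = 0.324). P2rx5, an ATP-gated channel, differed by 0.49 (SE 0.18, adjusted p = 0.297) and Ada, adenosine deaminase, by 0.93 (SE 0.56, adjusted p = 0.469). The ATP receptor P2rx7, often studied together with pannexin 1, read 6.04 to 7.14 on the normal and 5.83 to 6.29 on the tumour arrays, overlapping.

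Genes of lymphatic valves and flow sensing, the setting in which Cx37 is best known, gave 28 tested of 29. Of these 1 was at background on all arrays, and the other 27 had 15 positive and 12 negative differences with a median of 0.04, and 0 passed (limma). At an unadjusted p of 0.05 there were 4 higher and 2 lower, where all 12954 genes gave 863 higher and 1144 lower. Foxc2, a transcription factor of valves known to act on Cx37, read 8.27, 7.36 and 8.50 on the normal and 6.57, 6.44 and 5.88 on the tumour arrays. The groups were separated, with a difference of -1.74 (SE 0.36, adjusted p = 0.127). Nrp1, a neuropilin, averaged 9.43 ± 0.68 (SD, n = 3) on the normal arrays and read 8.50, 5.36 and 3.67 on the tumour arrays, the last at background (adjusted p = 0.276). Fn1, fibronectin, differed by 0.70 (SE 0.15, adjusted p = 0.132) and Eng, a receptor for BMP9, by 1.70 (SE 0.38, adjusted p = 0.147), both higher on every tumour array than on any normal one. Of the 28 tested, 6 were separated towards higher and 3 towards lower values, where 20.9% and 11.6% of all genes tested were. Piezo1, a flow-sensing channel, read 12.50 to 12.92 on the normal and 11.97 to 12.50 on the tumour arrays.

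**Figure D5:**
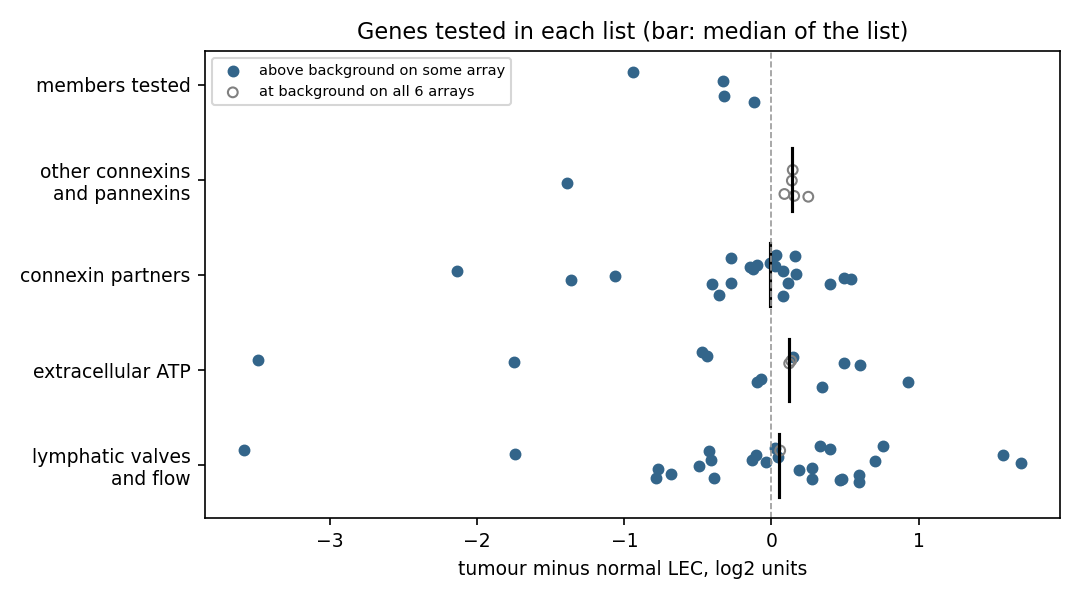
Difference between tumour and normal LEC in log2 units (horizontal axis) for the 4 members tested and for the tested genes of 4 lists. Filled points are genes above background on some array, open points genes at background on all 6, and bars the list medians over all points, open ones included, which lie between -0.01 and 0.14.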

How the data were processed

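The authors deposited log2 expression per probe set for 6 arrays. The submitters' processing notes name both RMA and GCRMA without saying which of them gave the deposited values. Either one normalizes between arrays, and GCRMA pulls dim probe sets towards a common low value. Per the labels' protocols 50 ng of RNA per array was amplified in 2 cycles. Names came from GEO's platform annotation, checked through Entrez identifiers (RefSeq table of GRCm38.p6, 0 symbols changed, 204 identifiers without a match). With R 4.3.3 and limma 3.58.1 (lmFit, eBayes, 1.61 prior and 4 residual degrees of freedom), probe sets with a mean above the 40th percentile (2.71) were kept and the brightest per gene was tested, two-sided, with Benjamini-Hochberg adjustment over 12954 genes. "At least" folds set the mean of the brighter group against the background limits. They are bounds for the floor only and do not take in the spread between arrays. Members, lists and the rule for named genes were chosen with earlier results of these data known. The rule named all members, per list the genes past the threshold or else the 2 smallest p in each direction, fixed identity and fibroblast markers, the 2 brightest of each other marker list, and the 3 genes nearest to a member with signal on at least 3 arrays and a range of at least 1. P2rx7, Piezo1, Hey1, Notch4 and the markers named as at background were named after their values were seen. On simulated data with 12954 genes, 42%, 72%, 92% and 96% of genes changed by 1, 2, 4 and 8 log2 units were recovered, with 8 false calls among 159. The simulation shifted genes picked at random and gave each gene independent normal noise, with no effect shared within an array. Its shares therefore need not hold for the real arrays, where 1373 genes differed at least 2-fold and 28 passed.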

Additional observations from a re-analysis of the deposited data

How the results depend on the processing

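The value of Gjc1 kept its direction in all 16 alternatives (adjusted p 0.0206 to 0.246, limma). It passed in 2, at -0.83 for the brightest probe set with arrays weighted by quality and at -1.64 for the mean of both probe sets, so that 1 member passed there and 0 in the other 14. Leaving out single arrays gave -1.03 to -0.84. The second probe set kept its direction throughout (adjusted p 0.0113 to 0.178). It no longer passed at -2.34 with no filter, at -2.34 with the replicate block, at -2.47 without both arrays numbered 1, and in 5 of the 6 fits without 1 array (-2.41 to -2.20). Without single arrays Gja1 ranged from -0.34 to 0.02 and Gja4 from -0.98 to 0.63, and Gja1 turned without normal array 2 (0.025) and Gja4 without normal array 1 (0.63) or tumour array 2 (0.036). Panx1 lay between -0.46 and -0.12 in every alternative. The count over all genes, 28, was 10 with no filter, 97 with a 60th percentile filter, 385 with array weights, 46 with the replicate block, 49 without both arrays numbered 1, 60 by probe set and 4 to 82 without 1 array. Deviations of same-numbered arrays correlated at 0.193, 0.326 and -0.004. Tumour arrays 1 and 2 correlated best with their own number and tumour array 3 did not, so pairing by number was not established, and the labels do not say. The cause of these shifts was not tested. Gja4, Gja5 and Gjb2 are limited by signal near background.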
